A study of Mus musculus with 6 samples.

Results

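The genes described here encode the 2 arms of antigen presentation by the major histocompatibility complex (MHC) in mouse tumours. They are a list of 35 gene symbols, 20 for the class I arm and 15 for the class II arm, and each was found once by its Ensembl ID among the 54532 genes of the count table. Of the 35, 33 had enough reads to enter the test between groups, which ran over 15203 genes. The rule for membership is a gene's function, and the list was made with earlier results of these data known. Of its genes, 21 lie on chromosome 17, where the mouse MHC is.

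The tumours grew from G422, a mouse glioblastoma cell line, inoculated under the skin of Kunming mice, an outbred stock, and were otherwise untreated. The cells carried a stable lentiviral integration, either a short hairpin RNA against neuroglobin, Ngb (group shNgb, 3 tumours), or the vector control (group shVec, 3 tumours). The labels name neither the age or sex of the hosts nor the promoter of the hairpin, and they do not say whether each tumour came from its own mouse, so the spread behind each p-value is that between the sequenced pieces of tumour. Whole tumours were sequenced, and host cells in them are part of every value. The design text speaks of transfection with Ngb and the sample labels of a hairpin. The groups are called here by their sample labels. Libraries held 19630319 to 25620667 reads assigned to genes, and the 10 most abundant genes took 4.07 to 4.38% of them. Ngb itself had 28, 23 and 13 reads in shVec tumours 1 to 3 and 18, 19 and 11 in shNgb tumours 1 to 3, a log2 fold change of -0.59 with a standard error (SE) of 0.42 (unadjusted p = 0.196, edgeR), so its reads did not separate the labels. Of the glioma and neural markers, Nes stood at 383 to 545 CPM (reads of a gene scaled to a common library size) and Sox2 at 13.8 to 22.6 CPM, whereas Olig1 and Olig2 had 0 reads in every library.

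Class I molecules display peptides from inside the cell to CD8 T cells. A heavy chain pairs with beta-2-microglobulin, the proteasome and its interferon-inducible subunits cut proteins, the TAP transporter carries peptides into the endoplasmic reticulum, and tapasin and aminopeptidases help load and trim them. Class II molecules, an alpha and a beta chain, display peptides from endosomes to CD4 T cells and are characteristic of dendritic cells, macrophages and B cells. The invariant chain CD74 holds their groove until cathepsin S cuts it, and the DM and DO molecules edit the bound peptide. Both arms respond to interferon-gamma, class I through the coactivator NLRC5 and class II through CIITA, which dock on a shared promoter module bound by RFX, CREB and NF-Y proteins.

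That module and the interferon motifs can be read in the promoters of members whose values are given below. The 6 windows shown are those of the classical heavy chains, the light chain, a transporter subunit and 2 class II chains, chosen because they carry the central molecules of each arm. Each is the 250 bases before the annotated start of transcription in RefSeq on GRCm38.p6, written 5′ to 3′ on the strand of the gene. Capitals mark matches to GGGGATTCC (the kappa B part of the class I enhancer A), GTTTCNCTT (the interferon consensus core of class I genes), the core of the interferon-stimulated response element, TGACG (the X2 box and CRE half-site) and CCAAT (the Y box core, bound by NF-Y), on either strand.
H2-K1, chr17:34000348-34000597, minus strand: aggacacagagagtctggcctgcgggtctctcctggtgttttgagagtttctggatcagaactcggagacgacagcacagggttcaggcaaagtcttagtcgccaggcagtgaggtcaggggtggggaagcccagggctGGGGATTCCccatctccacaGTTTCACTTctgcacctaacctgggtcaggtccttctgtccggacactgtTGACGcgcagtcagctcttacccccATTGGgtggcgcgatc
H2-D1, chr17:35262844-35263093, plus strand: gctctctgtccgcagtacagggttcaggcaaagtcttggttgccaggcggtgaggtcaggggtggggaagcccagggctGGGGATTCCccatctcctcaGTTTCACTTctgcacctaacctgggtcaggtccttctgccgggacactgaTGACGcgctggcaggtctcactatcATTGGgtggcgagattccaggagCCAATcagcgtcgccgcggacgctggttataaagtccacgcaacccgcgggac
B2m, chr2:122147437-122147686, plus strand: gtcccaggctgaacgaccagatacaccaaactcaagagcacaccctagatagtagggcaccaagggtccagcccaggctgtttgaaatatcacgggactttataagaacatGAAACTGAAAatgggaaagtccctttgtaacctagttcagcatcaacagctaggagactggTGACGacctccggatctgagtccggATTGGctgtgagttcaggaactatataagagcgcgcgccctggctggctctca
Tap1, chr17:34187306-34187555, plus strand: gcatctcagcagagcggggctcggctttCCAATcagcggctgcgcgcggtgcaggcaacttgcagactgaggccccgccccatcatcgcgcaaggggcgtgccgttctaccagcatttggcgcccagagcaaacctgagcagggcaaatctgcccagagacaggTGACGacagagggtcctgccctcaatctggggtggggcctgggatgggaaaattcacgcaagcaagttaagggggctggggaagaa
H2-Aa, chr17:34287824-34288073, minus strand: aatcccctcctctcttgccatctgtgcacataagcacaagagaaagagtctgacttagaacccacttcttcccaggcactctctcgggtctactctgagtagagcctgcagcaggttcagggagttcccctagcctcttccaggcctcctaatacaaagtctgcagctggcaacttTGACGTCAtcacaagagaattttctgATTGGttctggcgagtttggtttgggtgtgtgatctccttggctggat
H2-Eb1, chr17:34305617-34305866, plus strand: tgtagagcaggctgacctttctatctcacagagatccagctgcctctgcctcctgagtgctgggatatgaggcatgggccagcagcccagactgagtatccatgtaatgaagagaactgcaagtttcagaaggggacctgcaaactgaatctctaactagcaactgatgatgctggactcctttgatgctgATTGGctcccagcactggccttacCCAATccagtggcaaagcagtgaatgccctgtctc
In H2-K1 and H2-D1 the kappa B letters are followed within the same stretch by the interferon consensus core, then by TGACG and an inverted CCAAT. The TGACG and the inverted CCAAT start 25 bases apart in H2-K1, in H2-D1, in B2m and in H2-M3, 24 apart in H2-Q7 and 26 apart in H2-Aa. These are 6 of the 10 members whose window holds both motifs, and the other 4, H2-Q4, H2-T22, Tap1 and Psmb9, hold them in other layouts. H2-Eb1 holds CCAAT on each strand and no TGACG in this window.

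Over the promoter windows of the reference table (300 bases, 250 before the start and 50 after), 28 of the 35 members could be matched, 17 of class I and 11 of class II, and a gene was counted if any of its windows held the motif on either strand. CCAAT stood in 12 of 17 class I genes and 9 of 11 class II genes, against 41.1% of all 27025 genes in the table. TGACG stood in 10 class I and 2 class II genes (H2-Aa and Ifi30), against 23.05% of all genes. GGGGATTCC was found in H2-K1, H2-D1, H2-Q6 and H2-Q7 and in no class II gene, against 0.296% of all genes. GTTTCNCTT was found in 7 class I genes, H2-K1, H2-D1, H2-Q4, H2-Q6, H2-Q7, H2-M3 and H2-T22, and in no class II gene, against 2.05% of all. The core of the interferon-stimulated response element stood in B2m, H2-T22, H2-T23, Erap1, Psme1 and the class II gene Ctss, against 3.99% of all. It shares bases with GTTTCNCTT in H2-T22. TTCNNNGAA, the gamma-activated site, stood in H2-M3, Psmb8 and H2-DMb2, against 9.55% of all. The letters TGACG and GTTTCNCTT were added to the search after the promoters had been read, and a match of letters is a description, not a binding site. The windows of Tap1 and Psmb9, which face away from each other, share 275 bases.

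No gene of either arm passed the test. In edgeR's quasi-likelihood fit, 0 of 33 tested members were called higher and 0 lower at an adjusted p of 0.05, against 0 of 15203 genes (0%) in each direction, and no adjusted p in the fit was below 0.9997. At an unadjusted p under 0.05, 1 member (Ciita) stood higher and none lower, where 1.35% of all genes stood higher and 1.22% lower. limma-voom and DESeq2 also called 0 members. At an unadjusted p under 0.05, limma-voom had 0 of 33 members, against 428 of 15203 genes. DESeq2, run without that filter, had 7 of 35 members, against 477 of the 27834 genes in its fit. The fitted log2 fold change (shNgb over shVec) was positive for 32 of 33 members, 19 of 20 in class I and 13 of 13 in class II, against 50.9% of all genes. Its median was 0.51 in class I and 0.68 in class II, and 0.0026 over all genes. It exceeded 0.5 for 10 class I and 9 class II members, against 6.47% of all genes, and was below -0.5 for 0 members, against 2.88% of all genes. These counts rested partly on single tumours. Without shNgb tumour 3, the medians were 0.175 in class I and 0.36 in class II, 28 of 33 members were positive, and 1 class I gene (Nlrc5) and 5 class II genes exceeded 0.5. In edgeR without shVec tumour 2, 15 of 33 members had an unadjusted p under 0.05, against 754 of 15794 genes. Without shNgb tumour 1, 12 of 33 members did, against 784 of 15857 genes. The other fits with a tumour left out had few or none. Without shVec tumour 1, 1 of 33 members did, against 465 of 15572 genes, and without shNgb tumour 2, 1 did, against 583 of 15484. Without shVec tumour 3, 0 did, against 216 of 15750 genes, and without shNgb tumour 3, 0 did, against 321 of 15510. No tested member had all 3 shNgb tumours above all 3 shVec tumours, a pattern that 3.67% of all genes had, or all 3 below, which 3.43% had.

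**Figure D1:**
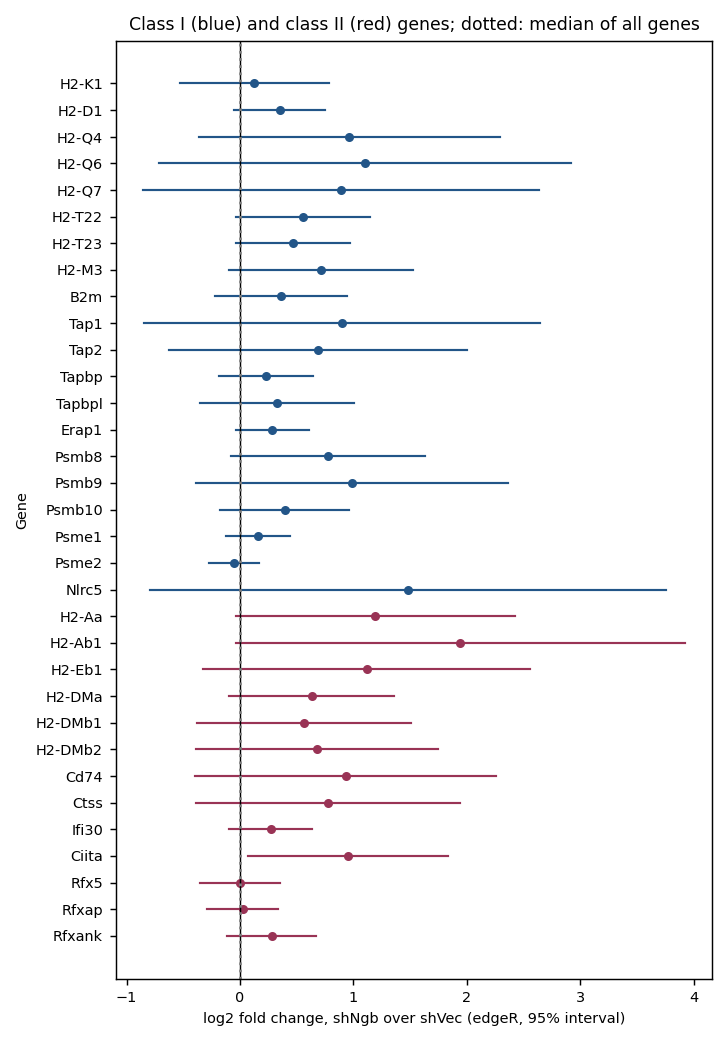
Fitted log2 fold change (x axis, shNgb over shVec, edgeR) with its 95% interval for each of the 33 tested genes, class I in blue and class II in red. The dotted line is the median of all tested genes at 0.0026. Every interval but that of Ciita includes 0, and Psme2 has the only negative estimate.

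The members varied between tumours of 1 group in a shared pattern. Of the 20 class I genes, 18 had their highest value of the 6 tumours in shNgb tumour 3, and 14 their lowest in shVec tumour 3. All 20 were highest among the controls in shVec tumour 2, and 13 were lower in shNgb tumour 2 than in shVec tumour 2. Of 54 pathway genes outside the list, 20 were highest in shNgb tumour 3 and 20 lowest in shVec tumour 3. Among the controls, 29 of the 54 were highest in shVec tumour 2, and 30 were lower in shNgb tumour 2 than there. Of the 63 cell type markers described below, 37 were highest in shNgb tumour 3 and 13 lowest in shVec tumour 3, ties going to the first tumour. Of the same 63, 36 were highest among the controls in shVec tumour 2, and 20 were lower in shNgb tumour 2 than there. The shares over all genes were not counted. shNgb tumour 3 also had the most assigned reads, 25620667, and shVec tumour 3 the fewest, 19630319. The summed class I level was 980, 1343 and 898 CPM in shVec tumours 1 to 3 and 1066, 1283 and 1636 CPM in shNgb tumours 1 to 3, so that shVec tumour 2 stood above 2 of the 3 shNgb tumours. The summed class II level was 214, 319 and 219 CPM in shVec and 228, 414 and 561 CPM in shNgb. Here shNgb tumours 2 and 3 both exceeded every control, and shNgb tumour 1 lay among the controls. Of the 15 class II genes, 8 had both of those tumours above all controls, against 7 of the 20 class I genes. Among 54 pathway genes outside the list, 9 had this pattern, as did 22 of the 63 markers, and its share over all genes was not counted. shNgb tumour 1 lay within or below the range of the controls for 19 of 20 class I genes, with H2-M3 the exception, and for 14 of 15 class II genes, with Rfxap the exception. In whole-tumour RNA, fewer cells of a type and less RNA per cell cannot be told apart.

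**Figure D2:**
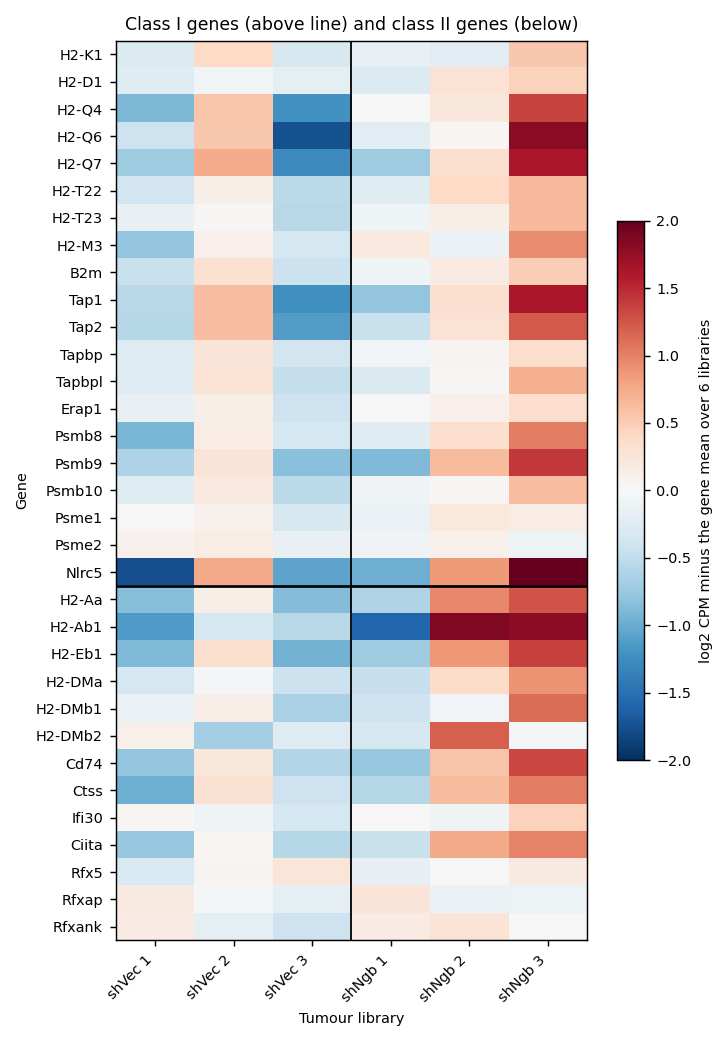
Colour shows log2 CPM minus the mean of the gene over the 6 tumours, for the tested class I genes (above the black line) and class II genes (below it), with the 3 shVec tumours left of the vertical line and the 3 shNgb tumours right of it. The column of shNgb tumour 3 is the most red for class I, shVec tumour 2 is red in class I too, and H2-Ab1 is red in shNgb tumours 2 and 3 alone.

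Markers of immune cells varied across the same tumours. The summed level of 14 T and NK cell markers was 9.38, 26.5 and 4.89 CPM in shVec and 4.97, 23.6 and 53.7 CPM in shNgb tumours 1 to 3, and all 11 that were tested had positive fold changes, with 0 called. Granzyme genes Gzma and Gzmb were the most abundant of these, at 0.482 to 13.8 and 0.482 to 15.1 CPM, and Cd3e had 0 reads in shVec tumour 3. The 10 macrophage and monocyte markers summed to 96.0, 193 and 160 CPM in shVec and 118, 241 and 301 CPM in shNgb, led by C1qa at 26.1 to 85.5 CPM and C1qc at 21.3 to 63.3 CPM, and all 10 were positive with 0 called. The 8 dendritic cell markers summed to 7.61, 10.7 and 11.6 CPM in shVec and 8.25, 16.9 and 24 CPM in shNgb, led by Itgax at 4.56 to 17.9 CPM, with Cd209a at 0 reads in 5 of 6 libraries. The 6 B and plasma cell markers summed to 1.26 to 2.37 CPM in shVec and 1.35 to 9.27 CPM in shNgb, and Ms4a1 had 0 reads in 5 of 6 libraries. The 10 glioma and neural markers summed to 538 to 597 CPM in shVec and 427 to 496 CPM in shNgb, and Nes was lower in all 3 shNgb tumours than in any control (log2 fold change -0.29, SE 0.08, adjusted p = 0.9997, edgeR). The 4 endothelial markers summed to 46.1 to 46.7 CPM in shVec and 40.4 to 53.8 CPM in shNgb. The 6 fibroblast markers summed to 1953, 1633 and 1728 CPM in shVec and 2369, 1897 and 1117 CPM in shNgb. That sum was thus highest in shNgb tumour 1 and lowest in shNgb tumour 3. The 5 neutrophil markers summed to 2.64, 3.48 and 2.04 CPM in shVec and 11.1, 2.72 and 5.10 CPM in shNgb. Their sum was highest in shNgb tumour 1, and Ly6g had 0 reads. The fibroblast marker Col1a1 (0.86, SE 0.23) and the neutrophil marker Csf3r (1.37, SE 0.34) were higher in all 3 shNgb tumours than in any control, each with an adjusted p of 0.9997 in edgeR, and 4 of 5 tested fibroblast markers were positive. These genes were singled out after their values were seen. Of the 42 tested markers, 2 had all 3 shNgb tumours above all controls, against 3.67% of all genes. All 3 were below in 1 marker, against 3.43% of all genes. The part of each cell type in the class I and class II values was not tested.

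**Figure D3:**
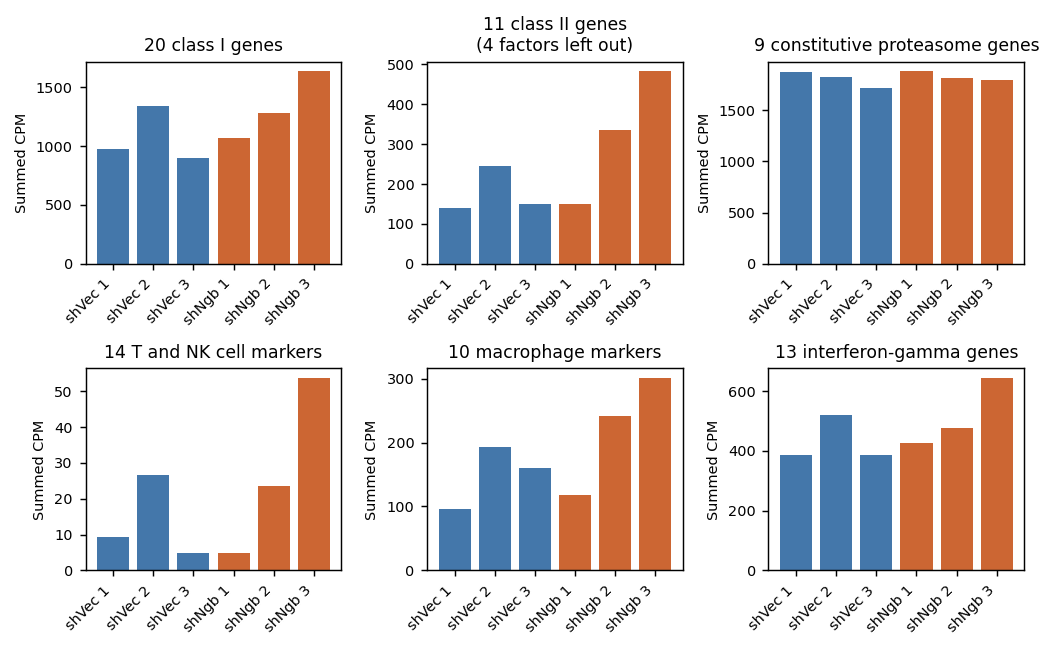
Bars give the summed CPM of each gene list in the 3 shVec tumours (blue) and the 3 shNgb tumours (orange), without error bars because each is 1 library. The class II bars sum 11 genes, with the 4 class II factors left out, and so are lower than the class II sums in the text. The class I and class II lists, the T and NK cell markers, the macrophage markers and the interferon-gamma genes are all highest in shNgb tumour 3, and the constitutive proteasome genes stay between 1714 and 1879 CPM.

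Among the class I genes, the classical heavy chains were abundant in every tumour. H2-K1 (ENSMUSG00000061232, GRCm38 chr17:33996017-34000347) had 71.6, 114 and 69.3 CPM in shVec tumours 1 to 3 and 77.6, 74.5 and 125 CPM in shNgb tumours 1 to 3. Each group held 1 high tumour and 2 low ones, the groups overlapped, and the log2 fold change was 0.13 (SE 0.27, 95% interval -0.53 to 0.78, unadjusted p = 0.659, edgeR). Without shNgb tumour 3 its estimate turned to -0.16, and without shVec tumour 3 it was near 0. H2-D1 (ENSMUSG00000073411, chr17:35262730-35267499) had 132, 149.5 and 138 CPM in shVec and 129, 191 and 214 CPM in shNgb. shNgb tumours 2 and 3 stood above all controls and tumour 1 below them, for a log2 fold change of 0.35 (SE 0.17, -0.05 to 0.75, unadjusted p = 0.0791).

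The non-classical heavy chains were less abundant and varied more. H2-T23, which encodes Qa-1 and presents leader peptides of other class I chains to NK receptors, had 35.5, 39.8 and 26.8 CPM in shVec and 36.9, 42.6 and 61.3 CPM in shNgb. The shNgb mean was 46.9 ± 12.8 CPM and the shVec mean 34.0 ± 6.64 CPM (SD, n = 3), with overlap between the lowest shNgb tumour and the highest control. H2-Q7, a Qa-2 gene, had 2.92, 8.01 and 1.99 CPM in shVec and 2.94, 5.97 and 14.9 CPM in shNgb, a 7.49-fold span between the lowest and highest tumour. H2-Q6, its neighbour and also a Qa-2 gene, spanned 11.6-fold, from 2.65 CPM in shVec tumour 3 to 30.7 CPM in shNgb tumour 3, and its log2 fold change of 1.10 had an SE of 0.75, with an estimate of 0.17 without shNgb tumour 3 and 1.77 without shVec tumour 2. H2-Q4, H2-T22 and H2-M3, which presents formylated peptides, had log2 fold changes of 0.96, 0.55 and 0.72. The 6 non-classical genes had a median of 0.80, against 0.24 for the 2 classical ones, a difference that was not tested. Without shNgb tumour 3 these medians were 0.28 and 0.02, and without shVec tumour 2 they were 1.33 and 0.40. H2-Q6 and H2-Q7 match each other at 94.0% of aligned transcript bases, and H2-T22 matches H2-T10 at 96.3%, so reads could have been split between copies. Summed with their copies, the log2 fold change was 1.02 for H2-Q6, H2-Q7 and H2-Q5 together and 0.56 for H2-T22 and H2-T10. The more abundant H2-D1, at 2678 to 5588 reads, matches H2-Q7 at 96.4% over 280 bases and H2-Q6 at 94.2% over 398. It matches H2-K1 at 90.5% over 1403 bases. Whether reads were shared between the classical and non-classical genes was not tested.

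B2m (ENSMUSG00000060802, chr2:122147686-122153083), the light chain of every class I molecule here, had 205, 344 and 207 CPM in shVec and 264, 314 and 395 CPM in shNgb. shVec tumour 2 exceeded 2 of the shNgb tumours, and the log2 fold change was 0.36 (SE 0.24, -0.22 to 0.95, unadjusted p = 0.182). Per transcript length, as FPKM (fragments scaled by transcript length and library size), it was the most abundant member, with 238 to 455 FPKM, ahead of H2-D1 at a mean of 61.2 FPKM and H2-K1 at 33.8 FPKM. The ratio of H2-K1 to B2m on that scale was 0.115, 0.109 and 0.111 in shVec and 0.0970, 0.0783 and 0.105 in shNgb, lower in every shNgb tumour by a small margin. It was singled out after the values were seen and was not tested.

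The 5 peptide loading genes had the same 3 leading tumours as H2-Q7, shNgb tumour 3, then shVec tumour 2, then shNgb tumour 2. Tap1 (ENSMUSG00000037321, chr17:34187553-34197225), which encodes a subunit of the peptide transporter, had 7.47, 16.7 and 4.68 CPM in shVec and 6.32, 13.7 and 33.7 CPM in shNgb. Its partner Tap2 had 3.51, 8.01 and 2.39 CPM in shVec and 3.81, 6.34 and 12.2 CPM in shNgb. Both were lowest in shVec tumour 3, and the groups overlapped. The log2 fold changes were 0.90 (SE 0.72, unadjusted p = 0.254) for Tap1 and 0.69 (SE 0.56, unadjusted p = 0.256) for Tap2, and without shNgb tumour 3 that of Tap1 was 0.05. Tapbp, encoding tapasin, which bridges TAP and the heavy chain, spanned less, with 131, 187 and 121 CPM in shVec and 151, 163 and 200.3 CPM in shNgb. Erap1, the aminopeptidase that trims peptides in the endoplasmic reticulum, had 64.3, 76.9 and 53.5 CPM in shVec and 71.2, 75.9 and 90.1 CPM in shNgb, a log2 fold change of 0.29 (SE 0.14, unadjusted p = 0.0779). Tapbpl, encoding the tapasin-related peptide editor, had a log2 fold change of 0.32 (SE 0.29) that turned to -0.02 without shNgb tumour 3. The libraries do not mark strand, and Tap1 overlaps 212 bases of Psmb9 and Erap1 overlaps 834 bases of Cast on opposite strands, so reads there could belong to either gene. The same holds for Tapbp, which shares 3422 bases with Zbtb22 (614 to 958 reads) on the same strand. Tapbpl shares 7928 bases with Vamp1 (114 to 195 reads) on the opposite strand.

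The inducible proteasome subunits Psmb8 and Psmb9 stood well below the constitutive ones they replace, and Psmb10 near its own. Psmb8 had 4.56, 9.52 and 6.77 CPM in shVec and 7.28, 10.9 and 17.4 CPM in shNgb, where shNgb tumours 2 and 3 stood above all controls (log2 fold change 0.77, SE 0.37, unadjusted p = 0.0698). Psmb9 had 4.28, 7.86 and 3.67 CPM in shVec and 3.57, 10.2 and 17.5 CPM in shNgb, with shNgb tumour 1 the lowest of all (0.99, SE 0.58, unadjusted p = 0.131). Psmb10 was more abundant, with 67.4, 91.0 and 55.3 CPM in shVec and 75.8, 82.1 and 123 CPM in shNgb (0.39, SE 0.24, unadjusted p = 0.144). Per length, Psmb8 reached 0.0117 to 0.0311 of its constitutive counterpart Psmb5 in shVec and 0.0217 to 0.0547 in shNgb. Psmb9 reached 0.0105 to 0.0227 of Psmb6 in shVec and 0.00918 to 0.0487 in shNgb. Psmb10 was near parity with Psmb7, at 0.590 to 0.886 in shVec and 0.697 to 1.16 in shNgb. The ratio was highest in shNgb tumour 3 for all 3 pairs. The 9 constitutive proteasome genes summed to 1714 to 1870.0 CPM in shVec and 1795 to 1879 CPM in shNgb, with a median log2 fold change of 0.04. Of these 9 genes, 7 were positive and 0 were called, with Psme3 at -0.10 (unadjusted p = 0.217) and Psmb7 at 0.08 (unadjusted p = 0.300).

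The proteasome activator genes varied least among the class I members. Psme1 had 88.5 to 116 CPM in shVec and 101 to 128 CPM in shNgb, a log2 fold change of 0.16 (SE 0.13). Psme2, its partner in the ring, had 104 ± 10.7 CPM in shVec and 99.9 ± 7.87 CPM in shNgb (SD, n = 3), a log2 fold change of -0.05 (SE 0.10, -0.28 to 0.17). That sign turned without shVec tumour 2 (0.006) and when the reads of a copy were added. Psme2b, which is no member, matches 794 of the 962 bases of the Psme2 transcript at 99.4%, and it had 48.0, 54.1 and 44.1 CPM in shVec and 55.1, 72.7 and 66.6 CPM in shNgb (log2 fold change 0.41, SE 0.12, adjusted p = 0.9997, edgeR). With the reads of both summed, the log2 fold change was 0.11 (SE 0.10, unadjusted p = 0.292).

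Nlrc5 (ENSMUSG00000074151, chr8:94434356-94527272), the coactivator of class I genes, had the widest span of the class I members. It stood at 1.59, 9.07 and 2.60 CPM in shVec and 2.75, 9.75 and 24.3 CPM in shNgb, a 15.3-fold span. shNgb tumour 3 was far above the rest, shVec tumour 2 and shNgb tumour 2 were alike, and the remaining 3 were low. The log2 fold change of 1.48 had an SE of 0.93 (-0.79 to 3.76, unadjusted p = 0.163), and without shNgb tumour 3 it was 0.51.

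**Figure D4:**
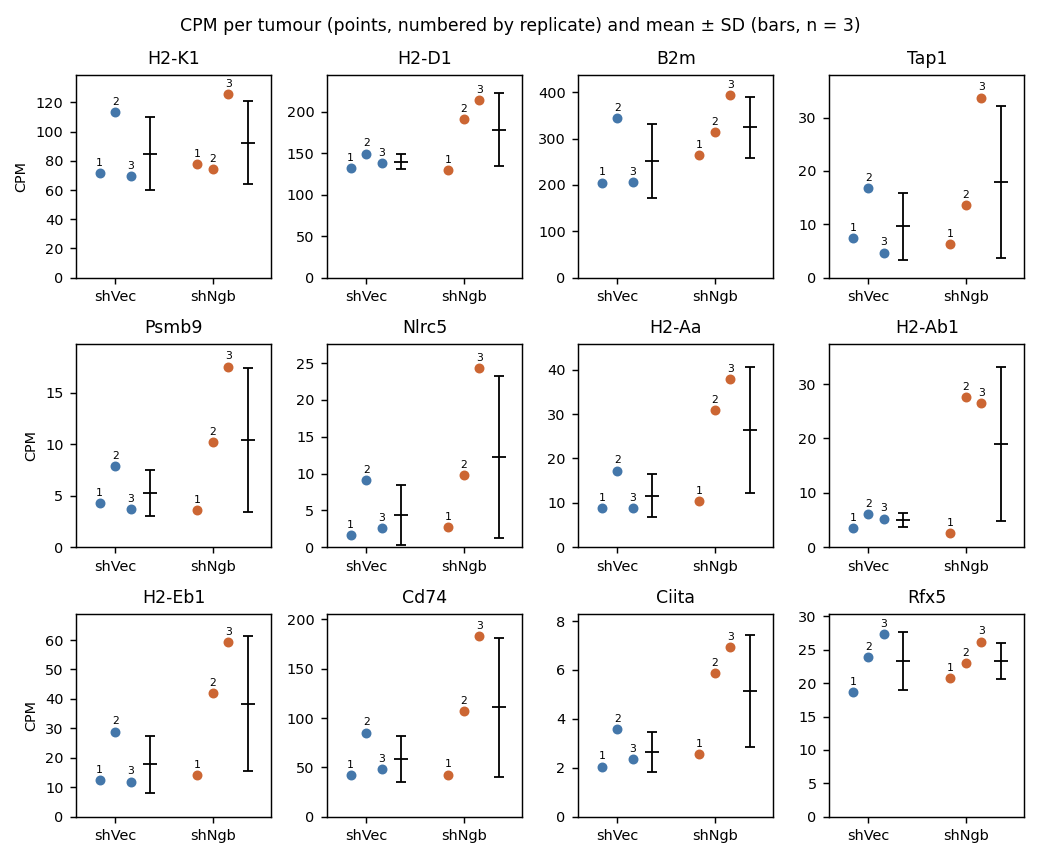
CPM of 12 genes in each tumour (points numbered by replicate, shVec blue, shNgb orange) with the mean ± SD of each group (black bars, n = 3), each panel on its own axis from 0. Replicate 3 is the highest shNgb point for the class I genes, H2-Ab1 has shNgb replicates 2 and 3 at 27.6 and 26.5 CPM and all other tumours at or below 6.05 CPM, and Rfx5 has the same mean in both groups.

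The 3 class II chains stood 1.19 higher in shNgb on the log2 scale at the median, and none passed the test. H2-Ab1 (ENSMUSG00000073421, chr17:34257689-34269419), the A beta chain, had 77, 120 and 103 reads in shVec and 53, 672 and 691 reads in shNgb, or 3.51, 6.05 and 5.24 CPM and 2.56, 27.6 and 26.5 CPM. shNgb tumour 1 was thus the lowest of the 6 and the other shNgb tumours the highest. The log2 fold change was 1.94 (SE 0.81, -0.04 to 3.93), a 3.85-fold difference with an unadjusted p of 0.0534 in edgeR. Without shNgb tumour 1 the smallest adjusted p over all genes, 0.0544, was still above the threshold. H2-Aa (ENSMUSG00000036594, chr17:34282744-34287823), the A alpha chain, had 8.79, 17.2 and 8.76 CPM in shVec and 10.5, 30.8 and 37.9 CPM in shNgb (log2 fold change 1.19, SE 0.51, -0.04 to 2.42, unadjusted p = 0.0554). H2-Eb1 (ENSMUSG00000060586, chr17:34305867-34316674), the E beta chain, had 12.5, 28.9 and 12.0 CPM in shVec and 14, 42.0 and 59.2 CPM in shNgb (1.12, SE 0.59, unadjusted p = 0.108). In both, shNgb tumour 1 lay within the range of the controls and the groups overlapped.

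As counted in reads, the chains did not keep the same proportions across tumours. The hosts were outbred, and how well reads of their MHC alleles match the reference was not tested, for these or the other H2 genes. Per length, H2-Eb1 was 2.12 to 2.66 times H2-Aa, a narrow range over all 6 tumours. H2-Ab1 over H2-Aa was 0.457, 0.402 and 0.686 in shVec and 0.280, 1.03 and 0.799 in shNgb, a 3.67-fold range. The partner of H2-Eb1, the E alpha gene, is annotated as a pseudogene (H2-Ea-ps), and the C57BL/6 reference strain carries a deletion in it. It is no member and was looked up after the other values were seen. It had 150, 358 and 75 reads in shVec and 148, 448 and 1220 reads in shNgb, 0.551 to 1.36 times the FPKM of H2-Eb1.

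The peptide editors were low. H2-DMa had 4.92, 6.15 and 4.68 CPM in shVec and 4.58, 8.06 and 11.7 CPM in shNgb (log2 fold change 0.63, SE 0.32, unadjusted p = 0.0806). H2-DMb1 had 3.55, 4.28 and 2.49 CPM in shVec and 2.94, 3.74 and 8.51 CPM in shNgb, and its log2 fold change of 0.56 (SE 0.41) turned to -0.04 without shNgb tumour 3. For H2-DMb1 only shNgb tumour 3 stood above the controls. H2-DMb2 had 12 to 23 reads in shVec and 16, 54 and 25 reads in shNgb, and it matches H2-DMb1 at 95.8% of aligned bases. The DO chains, which hold DM in check and mark B cells, had too few reads for the filter of the reported fit. H2-Oa had 1, 0 and 1 reads in shVec and 1, 5 and 5 reads in shNgb, where the count of 0 allows up to 0.151 CPM in shVec tumour 2. H2-Ob had 5, 5 and 8 reads in shVec and 4, 1 and 4 reads in shNgb, 0.296 ± 0.0974 against 0.129 ± 0.0787 CPM (SD, n = 3), with all 3 shNgb tumours below all 3 controls. With no filter beyond 1 read, edgeR gave log2 fold changes of 2.04 (SE 1.34) for H2-Oa and -1.17 (SE 0.86) for H2-Ob, both with an adjusted p of 0.963, and DESeq2 gave 2.20 (SE 1.82) and -1.21 (SE 1.11). H2-DMa overlaps 3094 bases of Brd2, which had 7181 to 9102 reads, on the opposite strand.

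Cd74 (ENSMUSG00000024610), the invariant chain, was the most abundant class II member per length, at a mean of 59.6 FPKM. It had 42.0, 85.1 and 48.0 CPM in shVec and 42.6, 107 and 183 CPM in shNgb, with shNgb tumour 1 as low as the lower controls (log2 fold change 0.93, SE 0.55, unadjusted p = 0.138). Ctss, cathepsin S, had 26.4, 64.0 and 39.2 CPM in shVec and 35.2, 81.0 and 105 CPM in shNgb (0.78, SE 0.48, unadjusted p = 0.153). Ifi30, the lysosomal thiol reductase that unfolds antigens, had 36.5, 33.8 and 27.7 CPM in shVec and 35.5, 33.7 and 48.8 CPM in shNgb, and only shNgb tumour 3 stood apart (0.27, SE 0.16, unadjusted p = 0.133). Cd74, Ctss and H2-Aa had the same 3 leading tumours, shNgb tumour 3, then shNgb tumour 2, then shVec tumour 2, and differed in the order of the rest.

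Of the 4 class II factors, Ciita had a fold change of 0.95 on the log2 scale and the 3 RFX subunits fold changes of 0.00 to 0.28, and none passed the test. Ciita (ENSMUSG00000022504, chr16:10480059-10528418), the master coactivator of class II genes, had 45, 71 and 46 reads in shVec and 53, 143 and 181 reads in shNgb, or 2.05, 3.58 and 2.34 CPM and 2.56, 5.88 and 6.94 CPM. shNgb tumours 2 and 3 stood above all controls and tumour 1 among them. The log2 fold change was 0.95 (SE 0.39, 0.07 to 1.84), with an unadjusted p of 0.0372 and an adjusted p of 0.9997 in edgeR. Rfx5 (ENSMUSG00000005774, chr3:94954075-94961561), the DNA-binding subunit of RFX, had 18.7, 23.9 and 27.4 CPM in shVec and 20.7, 23 and 26.2 CPM in shNgb, a log2 fold change of 0.00 (SE 0.16, -0.36 to 0.36) whose sign turned with the scaling. Rfxap had 29.6 to 38.3 CPM in shVec and 31.1 to 40.3 CPM in shNgb (0.02, SE 0.14), and Rfxank had 10.5 to 15.7 CPM in shVec and 14.2 to 16.9 CPM in shNgb (0.28, SE 0.17). The intervals of Rfx5 and Rfxap leave room for changes of up to 0.36 and 0.33 on the log2 scale. Ciita overlaps 25888 bases of Dexi, with 448 to 662 reads, and Rfxank overlaps Nr2c2ap, with 190 to 279 reads, both on the opposite strand.

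The wider pathway was read from 54 further genes, of which 47 were tested, 36 were positive, 11 were negative and 0 were called, with a median log2 fold change of 0.08. The chaperones of the endoplasmic reticulum that fold class I chains had a median of 0.04 over 7 genes, and 4 of the 7 were positive. Pdia3, the disulfide isomerase of the loading complex, had a mean of 619 ± 89.8 CPM in the controls and 688 ± 63.3 CPM in shNgb (SD, n = 3). Calr, calreticulin, had 862 ± 113 and 965 ± 143 CPM, and Uggt1, the glucosyltransferase that returns misfolded chains to it, 193 ± 6.59 and 203 ± 11.1 CPM (SD, n = 3). Of 14 other class I-like genes, 9 were tested, 8 were positive and the median was 0.56. They included Fcgrt, the neonatal Fc receptor, at 0.64 (unadjusted p = 0.0723, edgeR), H2-T10 at 0.57 (unadjusted p = 0.139) and H2-T24 at 0.57 (unadjusted p = 0.211). Of 7 other class II processing genes, 6 were tested and 4 were positive, with a median of 0.08. Ctsh, cathepsin H, had 8.16 ± 2.61 CPM in shVec and 15.6 ± 7.86 CPM in shNgb (SD, n = 3), Lgmn, the asparaginyl endopeptidase, a log2 fold change of 0.23 and Ctsd, cathepsin D, one of 0.10. The NF-Y and CREB genes, which bind the same promoter module as RFX, had a median of -0.02 over 4 genes. Nfyb had 51.1 ± 3.71 CPM in shVec and 45.5 ± 3.60 CPM in shNgb (SD, n = 3), lower in every shNgb tumour than in every control, with a log2 fold change of -0.17 (unadjusted p = 0.117, edgeR).

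The interferon-gamma genes, like the class I genes, had their highest sum in shNgb tumour 3 and their next highest in shVec tumour 2. Of 13 genes, 12 were tested, all 12 were positive with a median of 0.28, and 0 were called. Their summed level was 385, 520.2 and 386 CPM in shVec and 425, 476 and 644 CPM in shNgb, with shVec tumours 1 and 3 nearly equal and lowest. Irf1, a transcription factor induced by interferon-gamma, had 66.7 to 95.4 CPM in shVec and 78.8 to 127 CPM in shNgb (log2 fold change 0.34, unadjusted p = 0.132), and Irf8, a factor of myeloid cells, had 8.29 ± 0.676 CPM in shVec and 12.96 ± 6.59 CPM in shNgb (SD, n = 3). Ifng itself, the cytokine gene, looked up after the other values were seen, had 1, 16 and 3 reads in shVec and 5, 5 and 54 reads in shNgb and did not pass the filter. Its most reads were in shNgb tumour 3 and, among the controls, in shVec tumour 2, the same tumours in which the class I sum was highest in each group. Whether the interferon genes, the immune cell markers and the 2 arms share a source was not tested.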

How the data were processed

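Total RNA of 6 subcutaneous tumours was made into libraries with the TruSeq RNA kit, per the labels' protocols, a kit that keeps no strand information. The authors deposited read counts per Ensembl gene for all 6 libraries and, per sample, counts with FPKM values. Bowtie 0.12.2 and the builds mm8 and mm10 are named, per the submitters' processing notes, with no role given. The handling of reads that match several genes is not given in the sources used here. FPKM values for 11113 genes with over 50 reads could be recomputed from the counts within a relative deviation of 5.3e-09.

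Counts were tested with edgeR 4.0.16 in R 4.3.3: TMM scaling, filterByExpr, a robust quasi-likelihood fit of shNgb (3 libraries) against shVec (3 libraries), and Benjamini-Hochberg adjustment over all 15203 genes kept, with a threshold of 0.05. CPM values use TMM-scaled library sizes, and errors are SDs over 3 tumours or SEs of the fit. Symbols and positions came from GENCODE M21 on GRCm38 for 54409 of 54532 IDs. The 123 IDs without a symbol, 0.0207 to 0.0269% of reads, stayed in the library sizes. Levels between genes were compared on the deposited FPKM scale, with no test. Transcript copies were searched with blastn 2.17.0. Promoters came from a RefSeq table. Intervals on a count of 0 use 3 reads and cover counting error only. The scripts were tested on simulated data.

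Other settings tried were limma-voom (limma 3.58.1) and DESeq2 1.42.0 as tests, RLE or upper quartile scaling, a strict filter (at least 1 CPM and 10 reads in 3 or more libraries) or none, the replicate number as a block, each library left out in turn, and, added after seeing the data, near-identical copies summed. The text gives values in every library for members of each role on a fixed list and for any member with an unadjusted p under 0.05, up to 3 genes of smallest p with a mean of 1 CPM or more per pathway list, and up to 2 of highest mean per marker list. Members and lists were chosen with earlier results of these data known.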

Additional observations from a re-analysis of the deposited data

How the results depend on the processing

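No gene of either arm was called under any alternative. Over all genes, 0 were called in the reported edgeR fit, 3 with no filter beyond 1 read and 5 with DESeq2. A replicate block called 1 gene, no member, but the labels tie the replicate numbers to nothing. The correlations of the deviations of same-numbered tumours were 0.26, -0.14 and -0.10. With 3 tumours a group these cannot decide whether such tumours pair. The class I median log2 fold change ran from 0.175 (without shNgb tumour 3) to 0.71 (without shVec tumour 2), and the class II median from 0.36 (without shNgb tumour 3) to 0.94 (without shNgb tumour 1). The sign of 6 genes turned. With a library left out, H2-K1 ran from -0.16 to 0.39, Tapbpl from -0.016 to 0.57, Psme2 from -0.14 to 0.00596, H2-DMb1 from -0.044 to 0.83, Rfx5 from -0.14 to 0.13 and Rfxap from -0.11 to 0.12. Rfx5 was also -0.0048 with RLE scaling, -0.0025 with the strict filter and -0.0044 with DESeq2, and Psme2 was 0.11 with its copy summed. The cause of each was not tested. H2-Oa and H2-Ob, at 8 reads or fewer, entered only the fits with no filter and with DESeq2.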
